A study of Mus musculus with 44 samples.

Results

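DNA methylation was compared between the hippocampus and the frontal cortex of mice over 81642 autosomal 1-kb tiles, and 4649 of them separated the regions. A tile is a stretch of 1000 bases on a fixed grid, and it counted as measured where at least 3 cytosines were listed in each of hippocampus, cortex and whole blood. The members were chosen from the saline libraries alone. The mean of 3 hippocampus libraries had to differ from the mean of 4 cortex libraries by at least 15 percentage points. By this rule 1406 tiles (1.72% of all) were more methylated in hippocampus and 3243 tiles (3.97%) were more methylated in cortex. They are called hippocampus-high and cortex-high tiles here. The saline values chose them and are given as a description only.

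The animals were adult male C57BL/6J mice, 8 to 12 weeks old when obtained, in a model of Gulf War Illness. Every mouse, controls included, drank corticosterone (CORT, a stress hormone) at 200 mg/L in 0.6% ethanol for 7 days. On day 8 each received 1 dose of diisopropyl fluorophosphate (DFP, a stand-in for nerve agents that blocks acetylcholinesterase) at 4 mg/kg, and CORT was repeated every other week up to 5 weeks. On the last day LPS, a bacterial cell wall component that sets off inflammation, was given at 0.5 mg/kg under the skin to one group, and saline to the other. LPS libraries were made 6, 12 and 24 h later, and the saline libraries at 6 h only. Hippocampus had 4, 3 and 4 LPS libraries at the 3 times and 3 saline libraries. Frontal cortex had 4, 4 and 4 LPS libraries and 4 saline libraries. Whole blood had 4, 3 and 3 LPS libraries and 4 saline libraries. No group lacked CORT and DFP, so the regions were compared in exposed mice only. The labels do not say whether the tissues came from the same mice or whether replicates were separate mice. The p-values therefore measure the spread between these libraries.

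Methyl groups on cytosines of CpG dinucleotides are laid down and removed as cells take on their identity, and the pattern is then passed on through cell division. Neurons, glia and blood cells each carry their own pattern, most of all at enhancers inside and between genes, while CpG-dense promoters are unmethylated in nearly every cell type. The hippocampus holds granule cells of the dentate gyrus and pyramidal cells of the CA fields, and the frontal cortex holds layered projection neurons. A value from bulk tissue averages over all these cells, so a different share of a cell type and a different level per cell cannot be told apart. Bisulfite sequencing reads 5-methylcytosine and 5-hydroxymethylcytosine, which is abundant in neurons, as one signal.

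The promoters of 4 genes in which member cytosines lay are printed here, because they show what the measured sites look like in gene starts of different kinds. They were chosen after their values were seen. Each sequence is taken from RefSeq (GRCm38.p6), runs 5′ to 3′ on the strand of the gene, and covers 250 bases before to 50 bases after the annotated start. Capitals mark CpG dinucleotides measured in both brain regions. Cort (cortistatin, a neuropeptide of cortical interneurons) lies on the minus strand at chr4:149126714-149127013. Dpep1 (a dipeptidase) lies on the plus strand at chr8:123185985-123186284. Sncg (gamma-synuclein) lies on the minus strand at chr14:34374620-34374919. Tsc22d1 (a leucine zipper protein of the TSC22 family) lies on the plus strand at chr14:76488186-76488485.
Cort: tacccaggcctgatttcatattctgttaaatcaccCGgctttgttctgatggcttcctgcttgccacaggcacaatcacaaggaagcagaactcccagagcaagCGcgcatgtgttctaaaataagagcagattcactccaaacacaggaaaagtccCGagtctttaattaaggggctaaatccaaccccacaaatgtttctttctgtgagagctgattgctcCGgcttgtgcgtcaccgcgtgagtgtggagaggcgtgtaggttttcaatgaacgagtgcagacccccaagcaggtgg
Dpep1: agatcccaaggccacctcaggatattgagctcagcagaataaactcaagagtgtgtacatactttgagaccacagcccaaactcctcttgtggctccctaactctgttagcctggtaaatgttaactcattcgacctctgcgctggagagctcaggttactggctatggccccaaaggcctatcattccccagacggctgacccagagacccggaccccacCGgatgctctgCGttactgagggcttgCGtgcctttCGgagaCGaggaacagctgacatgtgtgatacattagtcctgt
Sncg: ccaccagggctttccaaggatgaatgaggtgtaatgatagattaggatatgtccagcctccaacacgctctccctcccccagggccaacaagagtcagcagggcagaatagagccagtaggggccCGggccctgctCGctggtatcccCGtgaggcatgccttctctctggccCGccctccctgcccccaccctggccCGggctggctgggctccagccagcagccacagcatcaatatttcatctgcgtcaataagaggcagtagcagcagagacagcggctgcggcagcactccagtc
Tsc22d1: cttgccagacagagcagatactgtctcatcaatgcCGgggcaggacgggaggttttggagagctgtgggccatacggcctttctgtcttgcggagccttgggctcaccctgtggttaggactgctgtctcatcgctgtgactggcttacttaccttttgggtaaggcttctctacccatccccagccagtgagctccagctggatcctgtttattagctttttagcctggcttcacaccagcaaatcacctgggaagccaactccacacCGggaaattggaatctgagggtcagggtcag

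Over the cytosines in capitals, the Cort promoter belonged to the hippocampus-high tiles and the other promoters to the cortex-high tiles. At Cort the LPS 6 h libraries averaged 41.2% ± 7.49 in hippocampus and 34.2% ± 3.44 in cortex (SD, n = 4 each). The saline libraries that chose its tile averaged 57.1% ± 4.78 in hippocampus (n = 3) and 39.2% ± 3.74 in cortex (n = 4). At Tsc22d1 the LPS 6 h libraries averaged 28.3% ± 4.80 in hippocampus and 62.5% ± 13.8 in cortex, so the regions stood far apart. At Dpep1 they averaged 57.0% ± 9.17 in hippocampus and 81.8% ± 6.49 in cortex. At Sncg they averaged 49.0% ± 3.88 in hippocampus and 62.9% ± 4.12 in cortex. Blood was low at the Sncg cytosines alone among the 4 promoters, with 9.33% ± 0.477 in LPS 6 h blood and 11.1% ± 4.63 in saline blood (n = 4 each). Over the whole tiles, hippocampus was lower than cortex in LPS 6 h libraries at Tsc22d1 by 25.6 points (SE 5.20, adjusted p = 0.00312, limma with Benjamini-Hochberg adjustment over all tiles), at Dpep1 by 25.2 points (adjusted p = 0.00196) and at Sncg by 18.9 points (adjusted p = 0.00357). The Cort tile did not pass that test at 6 h (7 points, adjusted p = 0.266) and passed it at 24 h (14 points, adjusted p = 0.0244).

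The deposited values are percentages per cytosine without read counts, so the depth behind each one is unknown. Each of the 9 tables, 1 per tissue and time, lists between 1083654 and 1380165 cytosines, and the rows of a tile differ between tables. A tile mean can thus rest on different cytosines in each region, and the difference over the cytosines common to both regions is given for a number of the tiles named where it was much smaller than over the whole tile. No 2 libraries of a tissue were copies of each other. The highest share of equal values over 211 pairs was 48.3%.

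In the 12 h groups 3 libraries stood apart. Over the 66119 tiles and 904678 cytosines listed in every table, the mean of the hippocampus-high tiles minus the mean of the cortex-high tiles lay between 25.9 and 30.7 points in the hippocampus libraries. It lay between −12.0 and −6.71 in the cortex libraries except replicate 4 of cortex LPS 12 h, which stood at 6.84 with 61.3% in hippocampus-high tiles and 54.5% in cortex-high tiles. The hippocampus and cortex labels thus matched the separation in all LPS libraries but that one, which lay in between. Replicate 2 of hippocampus LPS 12 h was low in both sets (60.3% and 31.2%), and so was replicate 3 of cortex LPS 12 h (40.3% and 52.3%). Low values in both sets were not confined to 12 h. Replicate 4 of hippocampus LPS 6 h had 59.1% and 32.0%, and replicate 4 of hippocampus LPS 24 h had 61.7% and 34.1%. The 12 h counts are given with and without the 3 libraries of the 12 h groups, which were picked after their values were seen. The median SD between libraries, over tiles with a mean of 20 to 80%, was 7.196 points in hippocampus LPS 12 h and 6.45 in cortex LPS 12 h, and between 3.70 and 5.87 in every other group.

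**Figure D1:**
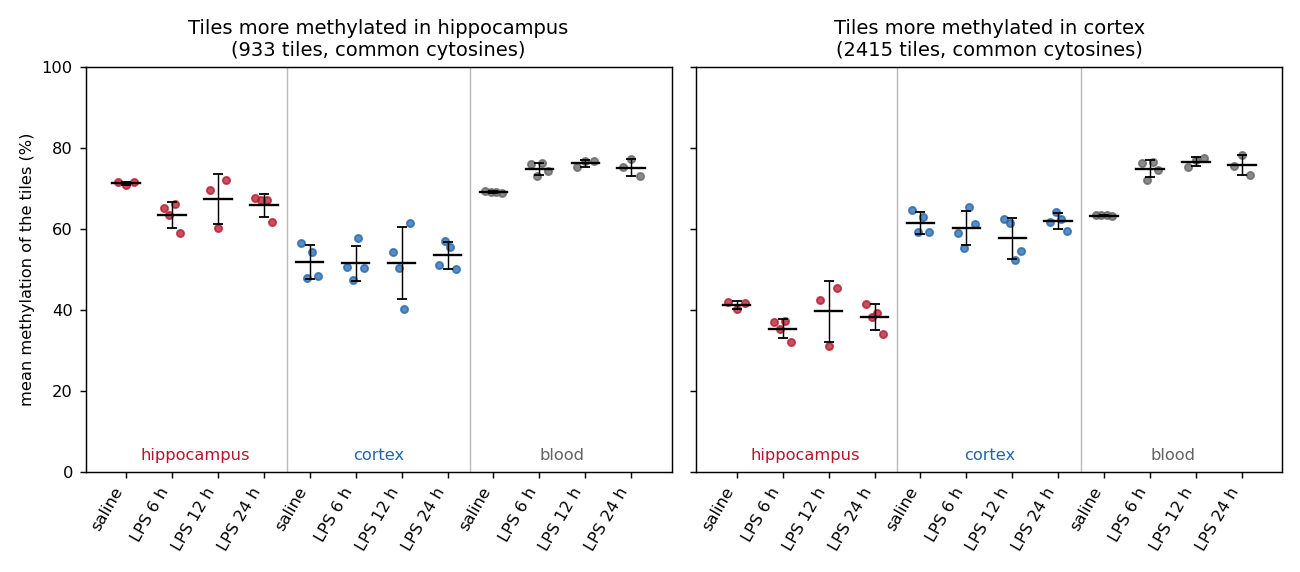
Mean methylation (percent) of the 933 hippocampus-high and the 2415 cortex-high tiles listed in every table, 1 point for each of the 44 libraries, grouped by tissue and time. Hippocampus libraries are high in the first set and low in the second, cortex libraries differ less between the sets, and blood is raised in both sets after LPS.

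In the saline libraries the hippocampus-high tiles had a median level of 76.3% in hippocampus and 53.2% in cortex. The cortex-high tiles had a median of 41.6% in hippocampus and 64.9% in cortex. Over all tiles the medians were 62.9% in hippocampus and 65.2% in cortex. The region with less methylation was seldom empty of it. In the hippocampus-high set 1348 tiles (95.9%) lay between 20 and 80% in cortex, and in the cortex-high set 2874 tiles (88.6%) lay between 20 and 80% in hippocampus, against 26.8% of all tiles in hippocampus and 28.1% of all tiles in cortex.

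The saline differences ranged from 15.01 to 67.5 points in the hippocampus-high set (median 19.6) and from −81.8 to −15.001 points in the cortex-high set (median −20.3). About as many tiles lay close to the threshold as beyond it, since 733 hippocampus-high tiles (52.1%) and 1555 cortex-high tiles (47.9%) differed by less than 20 points, and only 15 and 47 tiles differed by 40 points or more. The tile just inside the threshold lay in Snap29 (a SNARE protein of vesicle fusion), with 58.4% in hippocampus and 43.4% in cortex. The one just outside touched Ppm1e and Trim37 at a difference of 14.9485 points. On the cortex-high side the last member in a gene lay in Rcc2 at −15.003 points, and Ncdn (neurochondrin) missed the rule at −14.9983 points. Over the cytosines common to both regions, 1138 hippocampus-high tiles (80.9%) and 2767 cortex-high tiles (85.3%) still differed by 15 points or more in the same direction. The sign turned in 40 and 53 tiles, and 4 and 7 tiles had no cytosine in common. Over common cytosines the differences ran from −14.4 to 54.8 points (median 18.4) in hippocampus-high tiles. In cortex-high tiles they ran from −50.9 to 7.63 points (median −19.4). The whole-tile extremes of 67.5 and −81.8 points were thus not reached on the same cytosines.

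Member tiles lay away from gene starts. Only 46 hippocampus-high tiles (3.27%) and 110 cortex-high tiles (3.39%) lay within 1 kb of an annotated start, against 20.6% of all tiles. Inside genes but farther from a start lay 811 (57.7%) and 1834 (56.6%), against 43.2% of all tiles. Outside genes lay 549 (39.0%) and 1299 (40.1%), against 36.2%. Tiles near a start form a class of their own, so the higher inside share does not mean that members lay in genes more often. The gene table gives spans and starts and not exons, so exons and introns are not told apart. Members were also poorer in measured cytosines, since 168 hippocampus-high tiles (11.9%) and 399 cortex-high tiles (12.3%) had 10 or more rows in cortex, against 34.2% of all tiles. Between chromosomes the hippocampus-high share ran from 1.35 to 2.21% and the cortex-high share from 2.96 to 4.99%. Neighbouring members were few. A run of 3 member tiles, with gaps of at most 1 tile, occurred once among the hippocampus-high tiles, in Atxn7l1. Among the cortex-high tiles such runs occurred 4 times, among them in Numa1 (a spindle protein) and at 2 places outside genes.

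The LPS libraries, which had no part in choosing the members, were then compared between the regions. In LPS 6 h libraries 3125 of the 3243 cortex-high tiles were lower in hippocampus than in cortex (adjusted p under 0.05 and at least 5 points, limma), and none was higher. In the same test 745 of the 1406 hippocampus-high tiles were higher in hippocampus and 4 were lower. Over all 54493 tiles tested, 3.16% were higher and 20.9% were lower in hippocampus, so both shares of members (53.0% and 96.4%) stood above the background of their own direction. The median difference was 13.5 points in hippocampus-high tiles and −25.6 points in cortex-high tiles, and −2.32 points over all tiles.

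That lean of all tiles towards lower values in hippocampus depended on the scale. With the mean of each library subtracted (centring), 9656 of all tiles were higher and 7551 were lower in hippocampus at 6 h, against 1724 higher and 11401 lower as deposited. With centring 1121 hippocampus-high tiles were called higher and 3031 cortex-high tiles were called lower. The hippocampus-high count thus varied with the scaling and the cortex-high count hardly did. Over common cytosines the counts at 6 h were 564 and 2863.

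At 24 h the result was close to that at 6 h. Of the members tested, 649 of 1112 hippocampus-high tiles were higher in hippocampus and 2799 of 2951 cortex-high tiles were lower, against backgrounds of 3.95% and 21.2%. The opposite call was made in 11 hippocampus-high and 3 cortex-high tiles. With centring 895 and 2709 were called, and over all tiles 9306 were higher and 7509 lower, against 1920 higher and 10303 lower as deposited. The median difference was 13.2 points in hippocampus-high tiles and −24.0 points in cortex-high tiles.

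At 12 h fewer tiles passed. The median difference in hippocampus-high tiles was 15.9 points, not smaller than the 13.5 and 13.2 points at 6 and 24 h. In cortex-high tiles it was −18.1 points, smaller in size than the −25.6 and −24.0 points at 6 and 24 h. The calls were 275 of 1357 hippocampus-high tiles higher in hippocampus and 991 of 3191 cortex-high tiles lower, against backgrounds of 0.975% and 3.11%. Without the 3 libraries that stood apart the counts were 710 and 1631. With centring they were 880 and 1980, and over all tiles 2276 were higher and 3313 lower, against 520 higher and 1661 lower as deposited. Leaving out 1 library moved the 12 h counts further than at the other times. The hippocampus-high count dropped to 43 without hippocampus replicate 1, 114 without hippocampus replicate 3, 73 without cortex replicate 1 and 50 without cortex replicate 2. The cortex-high count dropped to 278 without hippocampus replicate 1, 417 without hippocampus replicate 2, 117 without cortex replicate 1 and 102 without cortex replicate 2.

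Counted without a model, all LPS 6 h hippocampus libraries lay below all LPS 6 h cortex libraries in 2981 cortex-high tiles (91.9%), against 15.5% of all tiles. They lay above them in 661 hippocampus-high tiles (47.0%), against 3.55% of all tiles. At 12 h the shares were 66.9% of cortex-high tiles against 8.8% of all and 43.1% of hippocampus-high tiles against 5.06% of all. At 24 h they were 92.7% against 15.4%, and 52.8% against 4.01%. Of the tiles with values at all 3 times, 2873 of 2930 cortex-high tiles (98.1%) and 970 of 1097 hippocampus-high tiles (88.4%) had the saline direction each time. Cortex-high tiles were called at 3 times in 899 cases and at none in 46, and hippocampus-high tiles in 204 and 486.

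The same 15-point rule applied to the LPS libraries found unequal lists. At 6 h it chose 698 hippocampus-high tiles, of which 590 were members (84.5% of the LPS list and 42.0% of the saline list). It chose 6818 cortex-high tiles, of which 3017 were members (44.3% of the LPS list and 93.0% of the saline list). At 12 h it chose 985 hippocampus-high tiles, of which 739 were members (75.03% of the LPS list and 54.4% of the saline list), and 3275 cortex-high tiles, of which 2126 were members (64.9% and 66.6%). At 24 h it chose 596 with 439 members (73.7% and 39.4%) and 5457 with 2584 members (47.4% and 87.5%). These lists use the values as deposited, whose lean towards lower values in hippocampus depended on the scaling.

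**Figure D2:**
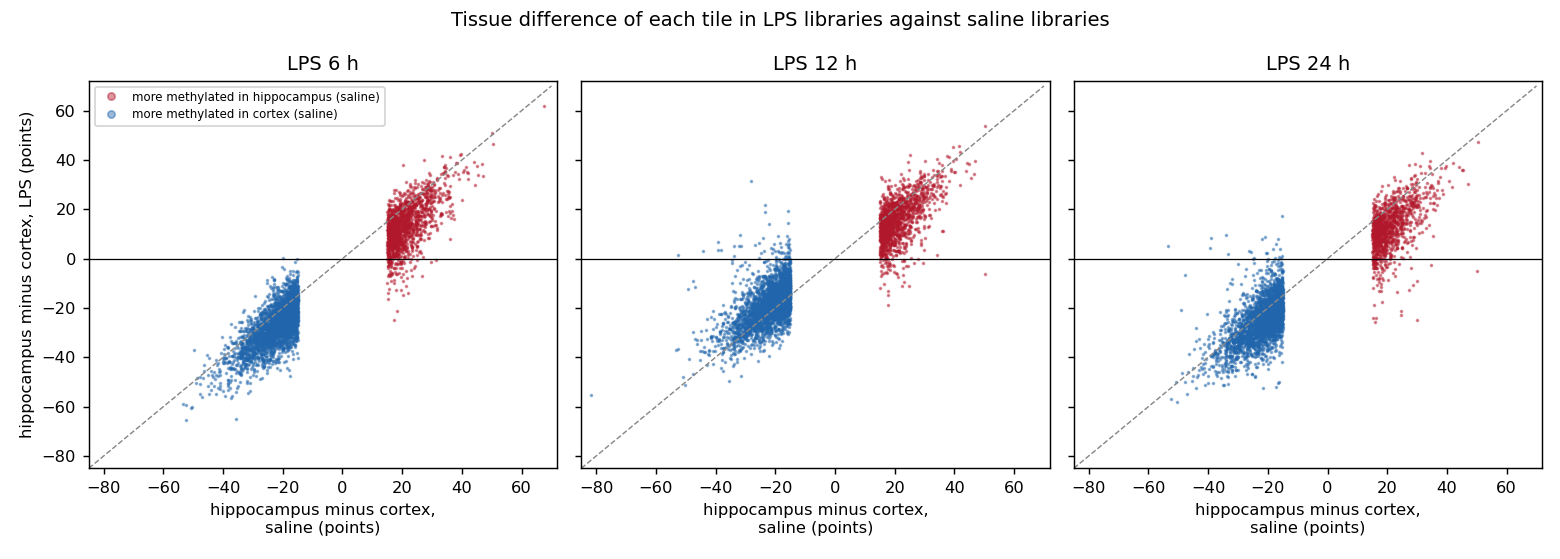
Hippocampus minus cortex difference of each member tile in LPS libraries at 6, 12 and 24 h (vertical axis, percentage points) against the saline difference that chose it (horizontal axis, percentage points). Most cortex-high points lie below 0 and most hippocampus-high points above 0 at each time, and hippocampus-high points cross 0 more often.

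Genes that mark hippocampal fields held members of both kinds. Of 202 measured tiles of these genes, 19 (9.41%) were cortex-high and 5 (2.48%) were hippocampus-high, against 3.97% and 1.72% of all tiles. Their median difference in LPS 6 h libraries was −4.36 points over the 132 tiles tested, against −2.32 points over all tiles. In LPS libraries 19, 5 and 17 of the cortex-high ones were lower in hippocampus at 6, 12 and 24 h. Prox1, the homeobox factor that sets dentate granule cell identity, held 4 cortex-high tiles among its 6 measured tiles. The clearest lay inside the gene at chr1:190150000-190150999. Its LPS 6 h libraries stood at 55.6, 53.0, 59.7 and 54.8% in hippocampus, against 94.9, 86.0, 94.5 and 86.9% in cortex. In saline libraries it stood at 63.1, 57.6 and 61.5% in hippocampus, against 95.4, 95.6, 90.0 and 91.9% in cortex. Every LPS 6 h hippocampus library was below every LPS 6 h cortex library, and the saline values chose the tile. The LPS 6 h difference was −34.8 points (SE 3.37, adjusted p = 2.86e-05), and it was −26.5 points at 12 h (adjusted p = 0.0175) and −35.3 points at 24 h (adjusted p = 3.63e-06). Blood stood with cortex at this tile, at 88.0% after LPS and 90.1% with saline.

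A second Prox1 tile at chr1:190139000-190139999, over 8 cytosines, averaged 32.9% ± 1.70 in hippocampus and 56.9% ± 4.92 in cortex in LPS 6 h libraries (SD, n = 4 each, difference −24.0 points, adjusted p = 7.17e-04). One more, next to the first at chr1:190149000-190149999, averaged 27.3% ± 8.30 in hippocampus and 48.3% ± 7.64 in cortex (−20.9 points, adjusted p = 0.00721). The start of Prox1 itself showed no such gap. Its cytosines were near 0 in both regions. Deeper inside the gene the regions parted at the member tiles and also at cytosines outside them, such as the one 13.761 kb from the start, with 31.8% in hippocampus and 81.9% in cortex in LPS 6 h libraries.

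**Figure D3:**
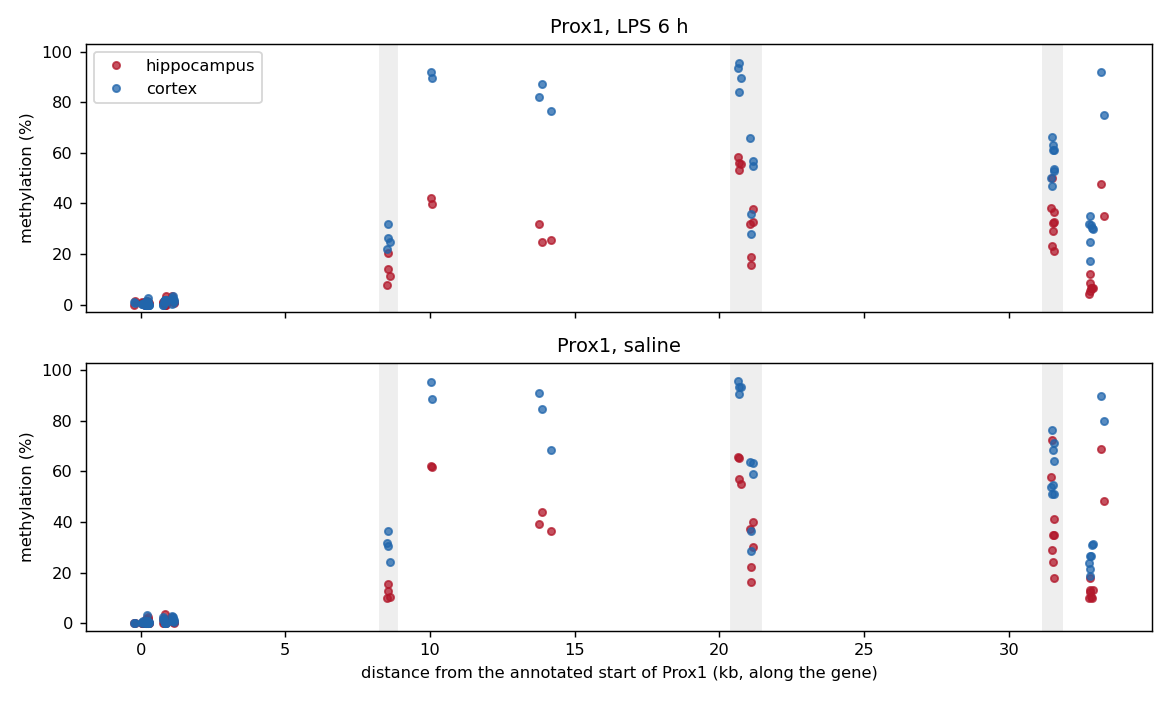
Methylation (percent) of each measured cytosine of Prox1 in hippocampus and cortex, plotted against its distance from the Prox1 start in kb along the gene, with member tiles shaded grey. Both regions lie near 0 around the start, and hippocampus lies below cortex at most cytosines deeper in the gene, both in the shaded tiles and outside them.

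Dsp (desmoplakin, a junction protein that marks dentate granule cells) showed a wider gap at chr13:38164000-38164999. In LPS 6 h libraries the tile stood at 41.1, 31.9, 39.5 and 30.8% in hippocampus, against 64.2, 85.0, 97.9 and 88.6% in cortex. The groups did not overlap, although the lowest cortex library was some way from the others. The difference was −48.1 points (SE 6.22, adjusted p = 1.65e-04), −29.1 points at 12 h (adjusted p = 0.0480) and −47.2 points at 24 h (adjusted p = 2.76e-05). Over common cytosines the 12 h call was lost at the same size. Zbtb20, a zinc finger repressor needed for CA1 development, had 29.5, 16.3, 27.7 and 30.2% in hippocampus, against 64.7, 69.8, 69.8 and 84.0% in cortex, at chr16:43538000-43538999 in LPS 6 h libraries (−46.2 points, SE 5.05, adjusted p = 5.63e-05). Fibcd1, a CA1 marker gene, had 24.8, 12.9, 10.9 and 19.1% in hippocampus, against 42.9, 40, 50 and 52.8% in cortex, at chr2:31824000-31824999 (−29.5 points, adjusted p = 2.11e-04). The hippocampus libraries were again the low ones in both tiles. Fibcd1 had no test at 12 and 24 h.

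The hippocampal genes on the other side were mixed. Lef1 (a factor of Wnt signalling needed to form the dentate gyrus) was higher in hippocampus at chr3:131126000-131126999 in LPS 6 h libraries, with 83.4, 87.1, 88.2 and 87.3% in hippocampus and 67.6, 58.9, 61.6 and 59.8% in cortex (24.5 points, SE 3.10, adjusted p = 1.43e-04). Over the 5 cytosines common to both regions the difference was 16.9 points. A Spock1 tile (testican, a proteoglycan) at chr13:57580000-57580999 had a saline difference of 21.8 points. Its LPS 6 h difference was 2.96 points (adjusted p = 0.738). Mpped1 (a metallophosphoesterase) had 5.59 points at LPS 6 h (adjusted p = 0.399). Of the 5 hippocampus-high tiles of this list, 1 passed the test at each of the 3 times.

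The largest cortex-high differences that passed at every LPS time lay in other genes. They were picked for passing, so their p-values describe them only. Grk3 (a kinase that turns off G-protein-coupled receptors) led them at chr5:112971000-112971999. After LPS for 6 h it stood at 22.1, 18.4, 15.1 and 9.75% in hippocampus, against 78.4, 69.2, 85.1 and 94.0% in cortex, a difference of −65.3 points (SE 5.33, adjusted p = 1.13e-05). Mad1l1 (a spindle checkpoint protein) had −60.2 points at chr5:140146000-140146999, with 18.4 to 31.5% in hippocampus and 77.8 to 93.5% in cortex. Over the whole tile, which can hold different cytosines in each region, the regions lay far apart without overlap in both. Tcf4, the basic helix-loop-helix factor mutated in Pitt-Hopkins syndrome, had 33.3 to 45.5% in hippocampus and 77.9 to 90.8% in cortex (−48.2 points). Slit3, a ligand of axon guidance, had −46.0 points at chr11:35338000-35338999, and Trabd2b, a protease that inactivates Wnt proteins, −47.2 points at chr4:114435000-114435999. Adarb2, an RNA-editing enzyme homologue that marks interneurons of the caudal ganglionic eminence, had −45.7 points at chr13:8718000-8718999. One tile of this group did not hold on the same cytosines. Cdkl1 (a cyclin-dependent kinase-like protein) had −41.2 points over the whole tile and −8.39 points over the 5 cytosines common to both regions, which did not pass the test.

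Several genes carried many cortex-high tiles. Gse1 held 19 among 84 measured tiles, Slit3 10 of 28, Wwox (a short-chain oxidoreductase) 10 of 67, Tcf4 8 of 25, Tspan18 (a tetraspanin) 8 of 14 and Fgfr1 (a fibroblast growth factor receptor) 6 of 13. In all, 94 genes held at least 3 cortex-high tiles and 21 genes held at least 3 hippocampus-high tiles. The hippocampus-high ones were led by Cit (citron kinase, which acts in cytokinesis) with 5 of 26, Ldlrad4 (an inhibitor of TGF-beta signalling) with 5 of 14, Nav2 (a neuron navigator) with 5 of 43, Sox5 with 5 of 38 and Tenm3 (a teneurin of synaptic wiring) with 5 of 41. Nav2 also held 3 cortex-high tiles, and Cit, Sox5 and Tenm3 held 1 each. A gene with more measured tiles can hold more members, and the counts were not adjusted for this.

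Genes of cortical layers and projection neurons lay on both sides. Of 296 measured tiles, 8 (2.70%) were hippocampus-high and 18 (6.08%) cortex-high, against 1.72% and 3.97% of all tiles. In LPS libraries 5, 2 and 3 of the hippocampus-high ones and 18, 2 and 15 of the cortex-high ones passed at 6, 12 and 24 h. Among all members tested, 53.0, 20.3 and 58.4% of hippocampus-high and 96.4, 31.1 and 94.8% of cortex-high tiles passed.

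Sox5, which controls the sequence of deep-layer neurons, was hippocampus-high in 5 tiles and cortex-high in 1. At chr6:144050000-144050999 it had 71.3, 77.8, 82.0 and 74.9% in hippocampus, against 55.1, 47.2, 58.8 and 52.8% in cortex in LPS 6 h libraries (23.0 points, SE 4.04, adjusted p = 0.00121), and it passed at 12 and 24 h. At chr6:144251000-144251999 the direction was opposite, with 23.6, 12.1, 10.5 and 22.1% in hippocampus and 47.6, 38.0, 58.9 and 58.4% in cortex (−33.7 points, adjusted p = 3.68e-04). The gene thus held sites that separated the regions in both directions. Cortex-high layer genes included Nfib, a nuclear factor I protein of deep layers and glia, with −31.6 points at 6 h (adjusted p = 2.96e-04), its relative Nfia with −38.8 points (adjusted p = 3.09e-04) and Zfpm2, a GATA cofactor of corticothalamic neurons, with −36.4 points (adjusted p = 8.33e-05). Nr4a2 (an orphan nuclear receptor of the claustrum and subplate) did not hold. Its saline difference of 27.8 points was 4.48 points over the 4 common cytosines. In LPS 6 h libraries it was 13.02 points (adjusted p = 0.0668), and −8.10 points over the common cytosines.

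**Figure D4:**
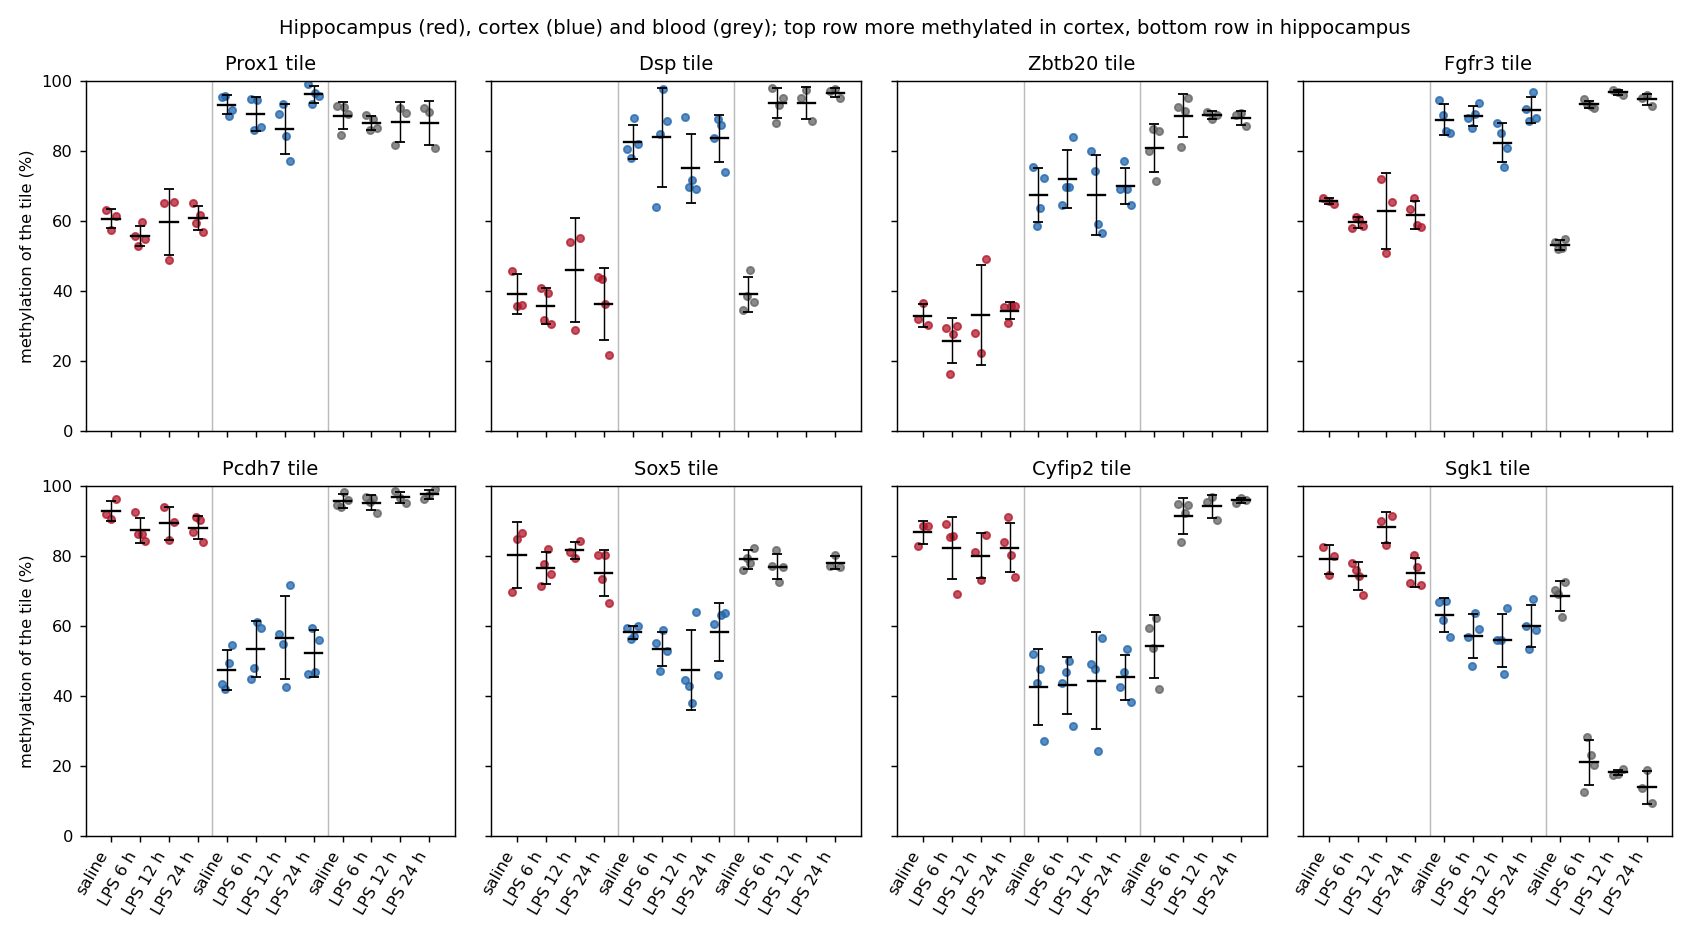
Methylation (percent) of 8 member tiles by library in 12 groups (3 tissues, LPS at 3 times and saline), with group means and SD as bars (Sox5 has no LPS 12 h blood value). The cortex-high tiles of Prox1, Dsp, Zbtb20 and Fgfr3 are in the top row and hippocampus-high tiles of Pcdh7, Sox5, Cyfip2 and Sgk1 in the bottom row. Blood moves with LPS in Dsp, Fgfr3, Cyfip2 and Sgk1, and stays near its saline level in Prox1, Pcdh7 and Sox5.

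The largest hippocampus-high differences that passed at every LPS time were again picked for passing. Lrrfip1 (an actin- and nucleic-acid-binding protein) led with 46.5 points at LPS 6 h (SE 4.81, adjusted p = 4.07e-05) at chr1:91022000-91022999, of which 29.4 points were found over the common cytosines. Cyfip2, a subunit of the WAVE complex that builds actin at synapses, had 89.1, 85.4, 85.6 and 69.2% in hippocampus, against 43.8, 46.8, 50.1 and 31.4% in cortex, at chr11:46265000-46265999 (39.3 points, SE 5.35, adjusted p = 2.28e-04). No library of the regions overlapped there. Pcdh7, an adhesion protocadherin, had 92.5, 86.2, 86.3 and 84.2% in hippocampus, against 44.97, 48.03, 61.04 and 59.44% in cortex, at chr5:57821000-57821999 (33.9 points, adjusted p = 1.31e-04). Smim43 (a small membrane protein), within 1 kb of whose start the tile lay, had 42.6 points (adjusted p = 2.76e-05). Cit had 35.9 points, Rora (a nuclear receptor of the ROR family) 35.3 points and Lrig3 (a membrane protein of growth factor signalling) 33.4 points. In this group it was the cortex that lay at middle levels, while hippocampus was nearly full in most.

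Astrocyte marker genes had no hippocampus-high tile and 6 cortex-high tiles of 71 measured (8.45%, against 3.97% of all tiles). The 6 lay in 3 genes, and Nfia, named above with the layer genes, held 3 of them. At 6, 12 and 24 h 6, 1 and 5 passed, against 96.4, 31.1 and 94.8% of all cortex-high tiles tested. Fgfr3, the growth factor receptor of astrocytes and their precursors, held a pair of neighbouring members. At chr5:33729000-33729999 it had 57.9, 61.3, 60.6 and 58.7% in hippocampus, against 89.5, 86.6, 90.6 and 93.7% in cortex, in LPS 6 h libraries (−30.4 points, SE 2.90, adjusted p = 2.76e-05). The spread within each region was narrow. Agt, the angiotensin precursor made by astrocytes, had −25.9 points (adjusted p = 2.75e-04). Other glial and vascular genes gave few members. Their hippocampus-high and cortex-high shares were 1.89 and 0.943% in oligodendrocyte markers and 2.44% each in microglia markers. The shares were 1.92 and 2.88% in endothelial and pericyte markers and 2.27% each in choroid plexus markers. Over all tiles they were 1.72 and 3.97%. Oligodendrocyte markers had 2 hippocampus-high and 1 cortex-high tile of 106, among them Nkx2-2 (a factor of oligodendrocyte precursors) with 12.4 points over the tile (adjusted p = 3.50e-04; 8.995 points over the common cytosines) and Mag (a myelin glycoprotein) with 14.4 points (adjusted p = 0.0325), which did not pass over the common cytosines (7.94 points). Microglia markers had 1 of each kind of 41, with 20.5 points at Csf1r (the receptor of the microglial growth factors, adjusted p = 0.0319) and −33.1 points at P2ry12 (their purinergic receptor, adjusted p = 5.41e-04). Endothelial and pericyte markers had 2 and 3 of 104. Pecam1 (an endothelial junction protein) had −33.7 points (adjusted p = 7.79e-05), Flt1 −34.0 points and Kdr −29.4 points (both receptors of vascular endothelial growth factors), and Abcc9 (a potassium channel subunit of pericytes) 22.5 and 23.7 points in its pair of tiles. Choroid plexus markers had 1 of each kind of 44, and the cortex-high one lay in Lmx1a, a homeobox gene of the roof plate and choroid plexus, with −39.4 points (adjusted p = 2.77e-05). These lists cover few of the measured tiles, so their counts do not describe the members as a whole. Whether cell shares moved with the differences was not tested.

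Neuronal markers had 4 hippocampus-high (1.90%) and 10 cortex-high tiles (4.74%) of 211, against 1.72% and 3.97% of all tiles. Of these, 2, 0 and 2 hippocampus-high and 9, 0 and 9 cortex-high ones passed at 6, 12 and 24 h. Over all members tested, 53.0, 20.3 and 58.4% of hippocampus-high tiles and 96.4, 31.1 and 94.8% of cortex-high tiles passed in their saline direction at these times. Camk2a, the kinase of excitatory synapses, had 9.88, 14.3, 7.31 and 15.8% in hippocampus, against 49.5, 40.2, 48.9 and 33.8% in cortex (−31.3 points, adjusted p = 9.61e-05). Gria1, an AMPA receptor subunit, held a cortex-high tile at chr11:57036000-57036999 (−27.5 points, adjusted p = 7.32e-04) and a hippocampus-high tile at chr11:57300000-57300999 that did not pass at LPS 6 h (9.66 points, adjusted p = 0.214). Rbfox3, which encodes the neuronal nuclear antigen NeuN, held 1 hippocampus-high tile, with 18.3 points (adjusted p = 0.00863). It also held 3 cortex-high tiles among its 53 measured tiles. Genes of one cell class thus lay on both sides. Interneuron markers had 2 and 7 tiles of 106 (1.89% and 6.60%) and shared their Prox1 tiles with the hippocampal list. Adhesion genes, clustered protocadherins included, had 6 and 15 of 269 (2.23% and 5.58%). Of these, 3, 0 and 2 hippocampus-high and 15, 4 and 15 cortex-high ones passed at the 3 times. Cdh13 (T-cadherin) held 4 members on each side, with −41.6 points at chr8:118275000-118275999 and 16.97 points at chr8:118241000-118241999. Patterning genes had 2 and 8 of 235 (0.851% and 3.40%), among them Hopx (a homeodomain-only protein) with −38.1 points (adjusted p = 1.18e-04).

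The mice had received a glucocorticoid and a cholinesterase inhibitor, so genes of both systems were looked at. Glucocorticoid response genes had 4 hippocampus-high and 6 cortex-high tiles of 82 (4.88% and 7.32%, against 1.72% and 3.97% of all tiles). All 4 of the first lay in Sgk1, a kinase induced by the glucocorticoid receptor. At chr10:21902000-21902999 Sgk1 had 77.9, 76.1, 74.2 and 68.8% in hippocampus, against 56.7, 48.7, 63.6 and 59.2% in cortex, in LPS 6 h libraries (17.2 points, SE 4.15, adjusted p = 0.00868), and it passed at all 3 times. At chr10:21998000-21998999 both regions were low, with 17.2 to 27.1% in hippocampus and 10.7 to 14.5% in cortex (11.2 points, adjusted p = 0.00509). Zbtb16 (a zinc finger factor induced by glucocorticoids) held 5 of the 6 cortex-high tiles, and its tile at chr9:48792000-48792999 had −36.2 points (adjusted p = 8.36e-04).

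Cholinergic genes had no hippocampus-high tile and 6 cortex-high tiles of 65 (9.23%, against 3.97% of all tiles). Of these, 6, 0 and 5 passed at 6, 12 and 24 h, against 96.4, 31.1 and 94.8% of all cortex-high tiles tested. The nicotinic receptor subunit genes Chrna6 and Chrnb2 had −28.9 points (adjusted p = 1.00e-04) and −26.9 points (adjusted p = 1.80e-04) at LPS 6 h. Over the 3 common cytosines of the Chrnb2 tile the difference was −18.4 points. A tile in the shared locus of Chat and Slc18a3, which make and package acetylcholine, had −12.96 points (adjusted p = 0.0375). Ache, the enzyme that DFP blocks, had −30.0 points over its whole tile (adjusted p = 0.00109) and −6.01 points over the 3 cytosines common to both regions, which did not pass. With no unexposed mice, none of these values says anything about the exposure.

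Some members changed sign. In LPS 6 h libraries 4 hippocampus-high tiles were lower in hippocampus, and the 3 with the largest differences were these. Mboat2 (a lysophospholipid acyltransferase) had 34.0, 43.4, 44.0 and 30.4% in hippocampus, against 66.5, 52.3, 75.6 and 56.5% in cortex, at chr12:24844000-24844999 in LPS 6 h libraries (−24.8 points, SE 5.55, adjusted p = 0.00560). In saline libraries it had 72.8, 67.4 and 62.6% in hippocampus, against 56.3, 51.2, 43.2 and 50.9% in cortex. The LPS 6 h libraries of the regions did not overlap, in the order opposite to the saline values, which chose the tile. Their difference was −24.0 points over common cytosines. Rnf144b (a ubiquitin ligase) at chr13:47215000-47215999 had −21.2 points (adjusted p = 0.0279) and Jade1 (a subunit of a histone acetylase complex) −16.2 points (adjusted p = 0.0311). None of the 3 passed at 12 h, where Mboat2 had −5.57 points (adjusted p = 0.776).

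Within each region the LPS values stood lower than the saline values in hippocampus, at member tiles of both kinds. These are values without a test, since the saline libraries chose the members. Over the 933 hippocampus-high tiles listed in every table, the median LPS minus saline difference in hippocampus was −7.197, −3.30 and −4.996 points at 6, 12 and 24 h, and 868, 751 and 825 tiles were below saline. In cortex it was −0.46, −0.05 and 1.74 points. Over the 2415 cortex-high tiles it was −5.71, −1.52 and −2.82 points in hippocampus and −1.19, −3.67 and 0.34 points in cortex. Over all tiles the medians were −0.55, −0.14 and −0.22 points in hippocampus. The hippocampus libraries as a whole moved the same way, with means over all tiles of 47.3% with saline and 45.2, 46.5 and 46.1% at the 3 LPS times, and the part of this shift in the member values was not tested.

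Whether the distance between the regions changed with time after LPS was tested on the LPS libraries. From 6 to 12 h it changed in 9 of 1359 hippocampus-high tiles, all lower, and in 47 of 3191 cortex-high tiles (46 higher and 1 lower), against backgrounds of 0.165% higher and 0.0919% lower. From 6 to 24 h it changed in 24 of 1115 hippocampus-high tiles, all lower, and in 48 of 2952 cortex-high tiles (40 higher and 8 lower), against 0.302% and 0.308%. Both comparisons share the 6 h libraries. Every one of these calls was lost over the cytosines common to the tables, where no tile at all passed. Without the 3 libraries that stood apart, 7 hippocampus-high tiles and 45 cortex-high tiles (44 higher and 1 lower) changed from 6 to 12 h. The cortex-high count was 31 without replicate 1 of hippocampus LPS 12 h and 73 without replicate 2. In Tshz2 (a zinc finger gene) the difference was −41.9 points at 6 h, 3.46 points at 12 h and 8.41 points at 24 h. The hippocampus libraries ran from 21.9 to 26.95% at 6 h, then from 56.7 to 66.4% and, at the last time, from 75 to 84.5%, while cortex stayed between 54.8 and 74.2%. Over the 3 common cytosines, however, its 6 h difference was −9.50 points. S1pr2 (a sphingosine phosphate receptor) and Camta1 (a calmodulin-binding transcription activator) had saline differences of −47.6 and −53.3 points over their tiles, and −0.70 and −1.10 points over common cytosines. These tiles entered the lists through the rows that each table held.

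Blood was not used by the rule, other than to require that a tile be measured there. In saline blood the hippocampus-high tiles had a median of 76.4% and the cortex-high tiles 71.1%, against 67.6% over all tiles. Both sets were poor in tiles with low values. Under 20% in saline blood lay 3.63% of hippocampus-high tiles and 4.01% of cortex-high tiles, against 31.9% of all tiles. Blood was nearer to hippocampus than to cortex in 984 hippocampus-high tiles (69.99%) and in 802 cortex-high tiles (24.7%), against 45.7% of all tiles. Blood thus stood mostly with the more methylated region. It lay above both regions in 661 hippocampus-high (47.0%) and 1796 cortex-high tiles (55.4%), against 41.9% of all tiles. It lay between them in 511 (36.3%) and 1008 (31.1%), against 19.4% of all tiles. Below both it lay in 234 (16.6%) and 439 (13.5%), against 38.7% of all tiles.

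LPS blood differed from saline blood at many members, in both directions. At 6 h, 547 of 1372 hippocampus-high tiles rose and 212 fell, and 1724 of 3187 cortex-high tiles rose and 309 fell. Over all tiles tested, 32.3% rose and 11.3% fell. The hippocampus-high share that rose (39.9%) was thus closer to the background than the cortex-high share (54.1%). Of the tiles at 20 to 80% in saline blood, 56.9% of hippocampus-high tiles and 70.2% of cortex-high tiles rose, against 58.9% of all, and 19.1% and 11.4% fell, against 15.7%. At 20 to 80% the hippocampus-high share that rose was near that of all tiles, but not at every level. Of the tiles over 80% in saline blood, 17.8% of hippocampus-high and 22.9% of cortex-high tiles rose, against 10.2% of all. In that class 9.58% and 5.83% fell, against 7.98%. Of the tiles under 20%, 35.0% and 46.4% rose, against 38.3% of all, and 30.0% and 14.3% fell, against 10.5%. At 12 h, 546 of 1201 hippocampus-high tiles rose and 163 fell, and 1635 of 2725 cortex-high tiles rose and 253 fell, against 37.0% and 9.63%. At 24 h, 553 of 1330 rose and 204 fell in the first set, and 1721 of 3090 rose and 303 fell in the second, against 33.9% and 11.0%. The 3 times share the same saline libraries.

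The split between rises and falls depended on scaling, because LPS blood was higher over all tiles. Its library means were 51.8, 52.7 and 52.1% at 6, 12 and 24 h, against 48.4% in saline blood. With centring, 389 hippocampus-high tiles rose and 413 fell at 6 h, and 1338 cortex-high tiles rose and 651 fell, while over all tiles 13164 rose and 20839 fell. At 12 h the centred counts were 343 up and 361 down, 1152 up and 558 down, and 11689 up and 18808 down over all tiles. At 24 h they were 383 up and 411 down, 1324 up and 637 down, and 12966 up and 19621 down. The cortex-high tiles leaned towards rises under both scales, and the direction of the hippocampus-high tiles turned round with centring. A blood value averages over leukocyte types, so a change in their shares and a change within cells cannot be told apart, and the part of leukocyte shares was not tested.

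**Figure D5:**
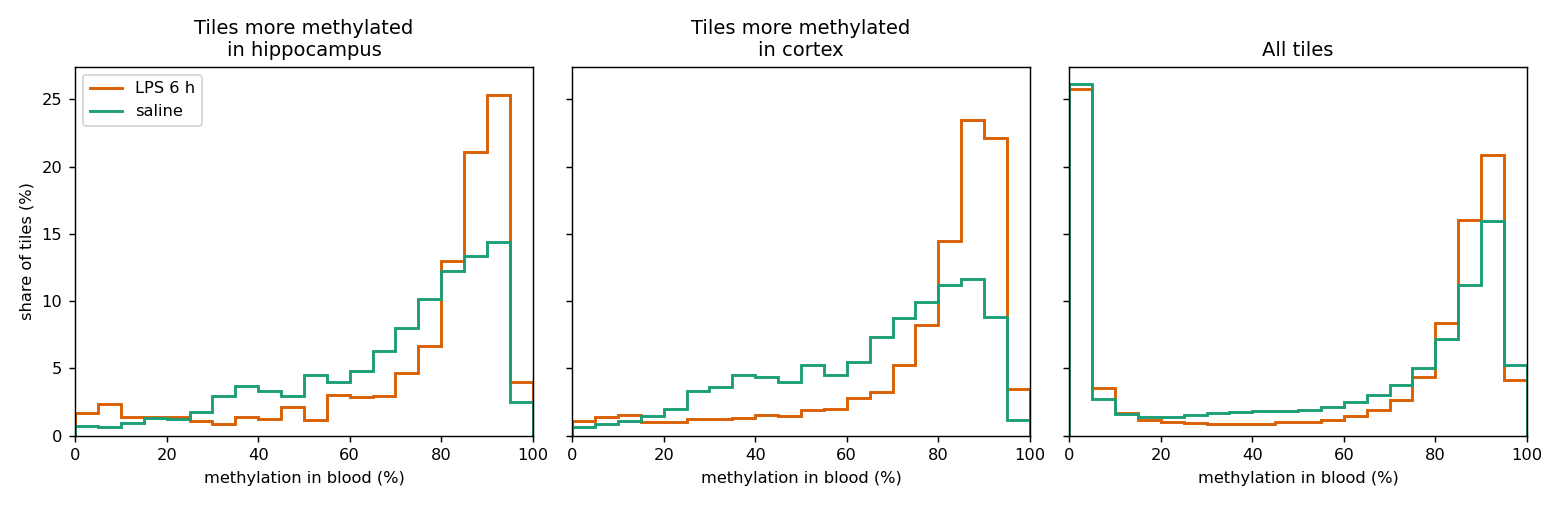
Histograms of blood methylation (percent) in LPS 6 h and saline libraries for hippocampus-high tiles, cortex-high tiles and all tiles, as the share of tiles in each class of level. Both member sets hold few tiles near 0, which is a large class among all tiles. After LPS both move towards the highest classes, with medians of 85.1 and 84.7% against 76.4 and 71.1% with saline. All tiles move the same way, with a median of 79.5% against 67.6% with saline.

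Some members were nearly full in LPS blood and low in saline blood. Rad51b (a protein of homologous recombination) had 92.2, 88.7, 94.8 and 91.7% in LPS 6 h blood, against 24.0, 15.7, 26.8 and 27.6% in saline blood, at chr12:79489000-79489999 (68.3 points, SE 3.36, adjusted p = 1.14e-08). It was a cortex-high tile. Slx4ip (a partner of the SLX4 nuclease scaffold), a hippocampus-high tile, had 96.2, 89.8, 95.9 and 92.2% in LPS 6 h blood, against 27.7, 27.3, 31.6 and 35.9% in saline blood (62.9 points). Rnf144b at chr13:47135000-47135999 had 58.9 points. Both groups were tight and far apart in each of these. The widest fall was smaller than the widest rise. Parvg (an actin-binding parvin of blood cells) had 0, 10.8, 1.41 and 1.71% in LPS 6 h blood, against 60.5, 61.4, 57.0 and 67.8% in saline blood (−58.2 points, SE 3.02, adjusted p = 1.26e-08). Ripor2 (an inhibitor of RhoA in neutrophils and T cells) had −55.6 points, Zfyve28 (a regulator of EGF receptor traffic) −54.0 points and Camk2a −51.1 points.

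Members that separate the brain regions moved in blood too. Dsp had 98.1, 88.0, 93.3 and 95.2% in LPS 6 h blood, against 34.6, 38.6, 46.2 and 37.0% in saline blood (54.5 points, SE 3.39, adjusted p = 2.21e-08). Fgfr3 had 94.8, 93.4, 93.0 and 92.2% in LPS 6 h blood, against 54.1, 51.9, 52.3 and 54.8% in saline blood (40.04 points, adjusted p = 2.00e-08). Cyfip2 rose by 37.2 points (adjusted p = 3.19e-06). Sgk1 moved in both directions within the gene. At chr10:21902000-21902999 it had 12.7, 28.2, 23.1 and 20.4% in LPS 6 h blood, against 70.3, 69.2, 62.6 and 72.5% in saline blood (−47.6 points, adjusted p = 8.29e-08). At chr10:21998000-21998999 it had 93.3, 75.8, 83.8 and 81.3% in LPS 6 h blood, against 39.7, 36.5, 37.3 and 32.2% in saline blood (47.1 points, adjusted p = 1.34e-07). In hippocampus the LPS 6 h libraries lay much closer to the saline ones, with 68.8 to 77.9% after LPS and 74.4 to 82.6% with saline at the first tile. At the second tile they had 17.2 to 27.1% after LPS and 28.1 to 36.0% with saline. The Prox1 tile at chr1:190150000-190150999 did not pass in blood (−2.14 points, adjusted p = 0.424).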

How the data were processed

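Methylation came from RRBS (reduced representation bisulfite sequencing), an assay of CpG-dense fragments. Per the labels' protocols, each Ovation library took 100 ng of DNA. The authors deposited percent methylation per cytosine (GRCm38/mm10) in 9 tables, and the submitters' processing notes name Bismark, Bowtie2 and methylKit, besides Trim Galore, FastQC and SAMtools, without versions. No source used here gives read counts or coverage filters, so no interval for counting error can be given.

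From the deposited percentages, cytosines were averaged into 1-kb tiles with at least 3 rows (Python 3.11.15, pandas 2.3.3, numpy 2.4.6). Tiles with a mean of 5 to 95% were tested with limma 3.58.1 in R 4.3.3 (trended variance, two-sided, Benjamini-Hochberg adjustment over all tiles of a fit), and a call needed an adjusted p under 0.05 together with at least 5 points of difference. The script was tested on simulated data, where false calls were rare but most changed tiles were missed. Misses were most common for hippocampus against cortex at 12 h and for changes between times. A tile without a call is thus not shown to be unchanged. Few tiles were changed there, and noise was drawn for each tile on its own, without shifts of whole libraries. The simulation therefore does not show how often such shifts give calls, or what share of changes is missed in these data. Genes were RefSeq spans extended by 1 kb.

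Tiles named in the text were the 10 of each direction with the largest saline difference called at all 3 LPS times, members in fixed gene lists (up to 4 a list), the 4 largest rises and falls in blood, the 3 largest reversals, the longest runs, and up to 4 tiles changed between LPS times. The printed promoters, the second member tiles of some genes and the examples within these groups were chosen after their values were seen. Tiles of some genes that this rule names are not reported here. The members and lists were chosen with earlier results of these data known. All 292 measured cytosines in 80 promoter windows matched the reference base. No per-sample column was left unused (0). Replicate numbers were not used as pairs in the main fits, and whether same-numbered libraries came from the same mouse is not known. Alternatives covered the member threshold, tile rows, filters, scaling, common cytosines, variance trend, logit scale, replicate block and leaving out each library.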

Additional observations from a re-analysis of the deposited data

Results flagged for a closer look

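By Dixon's criterion, a library mean lay far from the others of its group in 3 of 24 checks, of which chance alone flags about 1 in 20. The checks covered the 2 set means and their difference in each group of 4 libraries, so they were not independent. Groups of 3 libraries were not examined. The mean of the hippocampus-high tiles was 61.7% in replicate 4 of hippocampus LPS 24 h, against 66.99 to 67.5% in the other libraries of that group. The mean of the cortex-high tiles was 63.1% in replicate 4 of saline blood, against 63.31 to 63.34% in the others, a gap of under 1 point. The hippocampus-high mean minus the cortex-high mean was 1.03 points in replicate 2 of LPS 6 h blood, against −0.46 to −0.33 points in the others.

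The hippocampus minus cortex difference changed between LPS times, tested as an interaction in limma, in 9 hippocampus-high and 47 cortex-high tiles from 6 to 12 h, and in 24 and 48 tiles from 6 to 24 h. The count over common cytosines was 0 in each case.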

How the results depend on the processing

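Counts are given as hippocampus-high and cortex-high tiles, and as calls in the saline direction for hippocampus against cortex. A member threshold of 20 points left 673 and 1688 members, with 460 and 1665 calls at LPS 6 h, 181 hippocampus-high calls at 12 h, 381 and 1483 at 24 h, blood rises of 266 and 871 (6 h), 259 and 820 (12 h) and 263 and 879 (24 h), blood falls of 97 and 148, 78 and 116, and 95 and 143, and changes from 6 to 24 h of 14 and 25. Requiring 5 rows left 655 and 1492 members, with 422 and 1595 calls at 6 h, 607 cortex-high calls at 12 h, 342 and 1457 at 24 h, blood rises of 322 and 977, 294 and 886, and 323 and 962, blood falls of 133 and 185, 102 and 138, and 128 and 181, and changes of 4 and 19 (6 to 12 h) and 11 and 25 (6 to 24 h). These shrink with the number of members by construction. Library centring gave 1121 hippocampus-high calls at 6 h, 880 and 1980 at 12 h, blood falls of 413 and 651, 361 and 558, and 411 and 637, 343 hippocampus-high blood rises at 12 h, and 18 hippocampus-high changes from 6 to 12 h. A logit scale gave 17 such changes. At 12 h, no limit on the mean gave 31 and 115 calls, no variance trend 104 and 527, common cytosines 167 and 578, and leaving out the 3 libraries that stood apart (chosen after seeing the data) 710 and 1631. Over common cytosines all changes between LPS times came to 0. The cause was not tested unless stated.

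Replicate numbers were not used as pairs in the main fits, since correlations of same-numbered libraries were not all above 0.1. Such correlations cannot show whether same-numbered libraries came from the same mouse. The replicate block gave 5 and 29 changes from 6 to 12 h, and its calls (776 and 3131, 362 and 717, 699 and 2811 at the 3 times) otherwise stayed within 1.5 times. Leaving out each library in turn gave 1229 to 1723 and 2915 to 3577 members, 591 to 827 and 2963 to 3139 calls at 6 h, 43 to 393 and 102 to 1337 at 12 h, and 548 to 691 and 2694 to 2770 at 24 h. Blood rises ran from 511 to 582 and 1626 to 1786 (6 h), 497 to 544 and 1498 to 1624 (12 h), and 478 to 587 and 1550 to 1784 (24 h). Blood falls ran from 195 to 210 and 283 to 322, 146 to 164 and 226 to 267, and 186 to 219 and 270 to 354. Changes ran from 6 to 11 and 31 to 73 (12 h), and 18 to 25 and 35 to 51 (24 h).

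At single tiles, 5 values at LPS 6 h changed sign. Over common cytosines Nr4a2 was at −8.10 points and the tile of Mydgf and Tnfaip8l1 at −5.11. Leaving out each library, Spock1 ran from −0.70 to 7.05 (lowest without replicate 2 of cortex LPS 6 h) and Ripor2 from −3.82 to 0.64 (highest without replicate 3 of cortex LPS 6 h). Ripor2 was at 2.18 with centring. Of 3583 values of named tiles under alternatives, 3321 kept direction and side of the threshold. A coverage minimum was not run, since the percentages carry no counts.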
